A study of Mus musculus with 4 samples.

Results

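The Eph, ephrin, Slit, Robo and netrin genes were followed in *Mbd4*-deficient mouse embryonic fibroblasts (MEFs). Members were taken by gene symbol alone: the Eph receptors, the ephrins, Slit1 to Slit3, Robo1 to Robo4, Unc5a to Unc5d, *Ntn1*, *Dcc* and *Neo1*. This gave 36 of the 23537 genes in the table of raw read counts. The study asked how loss of MBD4, a glycosylase that repairs the mismatch left when a methylated cytosine is deaminated, alters methylation and expression. RNA of 2 Mbd4-/- (KO) samples was set against that of 2 Mbd4+/+ (WT) samples, all labelled C57BL/6. All were primary MEFs from embryos at day 12.5 after coitus, grown below confluence and sequenced after removal of ribosomal RNA. The methods call the samples of a genotype independent, but the sources used here do not name their embryos or cultures, so each p-value measures only how far these samples differ, and that difference may be technical.

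These genes encode guidance cues, their receptors and the pieces between them. Eph receptors are tyrosine kinases that bind ephrins on a neighbouring cell and signal in both cells, with A-type ephrins held by a lipid anchor and B-type ephrins spanning the membrane. Secreted Slit proteins bind Robo receptors and usually repel cells and axons, whereas netrin attracts through Dcc or neogenin and repels through Unc5 receptors. In mesenchyme the same families are known for setting tissue boundaries, cell spreading and migration.

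The KO libraries held 45223089 and 39108275 counts and the WT libraries 47567835 and 42796997. *Mbd4* itself had 7.85 and 7.33 CPM (counts scaled to library size with TMM factors) in KO and 14.8 and 15.4 CPM in WT, so its RNA was reduced and not absent in KO. *Ift122*, which lies beside *Mbd4* and acts in the cilium, was lower as well, with 7 and 3 counts in KO against 1002 and 944 in WT; its part in the results below was not tested. All 10 fibroblast markers passed the filter on low counts, and their summed level was 10197 to 10931 CPM in KO against 15648 to 17209 CPM in WT, with 1 higher and 5 lower. The higher one was *Prrx1*, at 531 and 515 CPM in KO against 124 and 153 CPM in WT. The lower ones were *Col1a1*, *Col1a2*, *Col3a1*, *S100a4* and *Vim*, while *Pdgfra*, *Pdgfrb*, *Thy1* and *Twist1* were not called. Of markers of other cells, the neuron list had 2 higher and 1 lower of 3 tested (summed level 33.1 to 34.3 CPM in KO and 34.9 to 36.7 CPM in WT). Its members moved far apart under these near-equal sums: *Stmn2* had 26.7 and 23.7 CPM in KO against 2.50 and 2.32 CPM in WT, *Syt1* 3.53 and 3.61 CPM in KO against 0.045 and 0.073 CPM in WT, and *Tubb3* 3.81 and 5.68 CPM in KO against 32.3 and 34.2 CPM in WT. The cartilage list had 3 lower of 4 tested, at 127 to 145 CPM in KO against 422 to 462 CPM in WT. The neural progenitor and glia list had 1 higher and 2 lower of 4 tested (134 to 140.1 CPM in KO and 344 to 428 CPM in WT). None of 6 tested endothelial markers was called, at 14.8 to 14.9 CPM in KO and 16.0 to 16.2 CPM in WT, and the epithelial list had 1 higher of 2 tested, at 3.11 to 3.45 CPM in KO and 0.960 to 1.39 CPM in WT. The part of other cell types in the results was not tested, and in bulk RNA fewer cells of a type cannot be told apart from less RNA per cell.

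Of the 36 genes, 26 passed the filter and 10, with 3 to 22 counts summed over the 4 libraries, did not. By quasi-likelihood test in edgeR, with p-values adjusted after Benjamini and Hochberg over all 15538 genes tested, 18 of the 26 passed an adjusted p of 0.05, of which 11 were higher and 7 lower in KO. The background was wide: 66.8% of all genes tested passed in either direction, 34.3% higher and 32.5% lower. The members' share of 69.2% was thus close to that of the genome, and what follows describes which members moved and by how much. An absolute log2 fold change above 1 was reached by 4 higher and 3 lower members, against 21.9% of all genes. A stricter limit (adjusted p of 0.01, log2 fold change beyond 2 either way) was passed by *Ephb2* and *Epha1* alone, against 8.94% of all genes. KO and WT libraries did not overlap in CPM for 22 of the 26, against 82.8% of all genes. The median log2 fold change of the 26 was 0.10, against 0.02 over all genes. Scaling by library totals in place of TMM moved the median of all genes to 0.17 and that of the members to 0.25, and turned the genome's 5335 higher and 5045 lower calls into 6628 and 3964. Leaving out KO replicate 2 brought the members' median to 0.00245, leaving out KO replicate 1 to 0.21 and leaving out WT replicate 2 to 0.18.

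**Figure D1:**
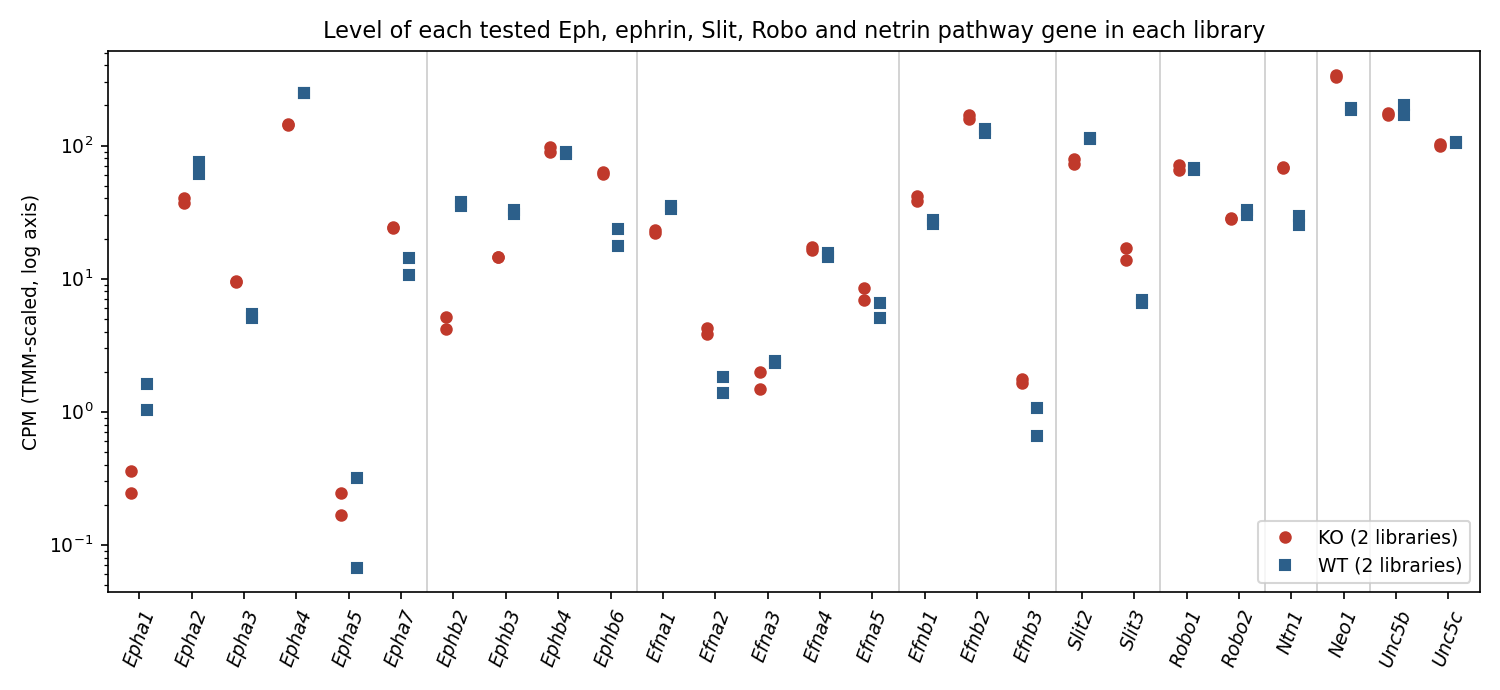
Level of each of the 26 tested genes in each library, in TMM-scaled CPM on a log axis, with 2 KO libraries (circles) left of 2 WT libraries (squares) and genes grouped by family. *Ephb2* shows the widest gap, with 5.18 and 4.17 CPM in KO below 37.6 and 35.0 CPM in WT.

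The promoter sequences of *Ephb6*, *Ephb2* and *Epha1* are shown because the first had the largest rise, and the others the largest falls, among the tested members, and because the study concerns methylated CpG. Each line gives the 250 bases before the RefSeq start, 5′ to 3′ on the strand of the gene, in build GRCm38.p6, with CG dinucleotides in capitals. *Ephb6* lies at chr6:41605261-41605510 on the plus strand, *Ephb2* at chr4:136836013-136836262 on the minus strand and *Epha1* at chr6:42373269-42373518 on the minus strand.
Ephb6: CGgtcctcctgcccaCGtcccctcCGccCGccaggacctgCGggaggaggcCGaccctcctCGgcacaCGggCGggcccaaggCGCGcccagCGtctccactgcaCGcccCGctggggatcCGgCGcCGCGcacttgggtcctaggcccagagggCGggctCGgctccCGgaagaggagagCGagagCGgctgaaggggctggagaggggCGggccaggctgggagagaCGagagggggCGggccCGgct
Ephb2: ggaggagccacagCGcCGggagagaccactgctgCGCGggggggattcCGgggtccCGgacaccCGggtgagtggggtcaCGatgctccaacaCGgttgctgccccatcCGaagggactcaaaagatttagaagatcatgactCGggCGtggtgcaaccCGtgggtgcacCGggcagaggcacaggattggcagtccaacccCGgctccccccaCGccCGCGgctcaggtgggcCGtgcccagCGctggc
Epha1: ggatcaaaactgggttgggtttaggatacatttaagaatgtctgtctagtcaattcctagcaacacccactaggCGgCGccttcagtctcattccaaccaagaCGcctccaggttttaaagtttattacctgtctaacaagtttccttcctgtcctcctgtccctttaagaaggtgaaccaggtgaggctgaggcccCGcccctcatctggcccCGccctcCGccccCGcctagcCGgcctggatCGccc
The capitals mark 27 CG in *Ephb6*, 20 in *Ephb2* and 9 in *Epha1*. CG reads the same on both strands, so each is counted once.

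Among the 26 tested members, the EphB receptors held the largest change in each direction. *Ephb2*, a receptor of B-type ephrins, lies on chromosome 4 of mm9 from 136203454 to 136391903 on the minus strand. It had 246 and 172 counts in KO and 1682 and 1435 counts in WT, which is 5.18 and 4.17 CPM in KO against 37.6 and 35.0 CPM in WT. Both KO libraries were far below both WT libraries. Its log2 fold change was -2.95 ± 0.11 (SE), the largest fall among the members, with an adjusted p of 6.2e-11 in edgeR.

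*Ephb6*, a receptor whose kinase domain is known to lack catalytic activity, went the other way. It lies on chromosome 6 of mm9 from 41555481 to 41570508 on the plus strand. The level was 60.9 and 63.6 CPM in KO against 17.6 and 23.5 CPM in WT. The WT libraries differed from each other more than the KO libraries did, and the groups were well apart. The log2 fold change was 1.60 ± 0.11, with an adjusted p of 2.0e-08 in edgeR.

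*Ephb3*, which with *Ephb2* positions cells along the intestinal crypt, had 14.6 CPM in both KO libraries and 30.3 and 32.6 CPM in WT, a log2 fold change of -1.11 ± 0.08 (edgeR adjusted p of 6.2e-08). *Ephb4*, the venous receptor of ephrin-B2, had 89.6 and 97.5 CPM in KO and 90.0 and 86.1 CPM in WT. Its groups overlapped and it was not called, at a log2 fold change of 0.09 ± 0.06; with library totals it was, at 0.24 (edgeR adjusted p of 0.0055, up to 0.83 over the alternatives). Exons of *Ephb4* overlap those of *Zan* on the opposite strand. *Ephb1* was below the filter on low counts, with 5 and 3 counts in KO and 0 and 1 in WT, a ratio per library size of 7.73 with an exact 95% interval of 1.04 to 343.

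The makeup of the EphB receptors by RNA differed between the genotypes. Per kilobase (kb) of exon, *Ephb6* made up 42.2% and 41.6% of summed EphB level in KO against 14.6% and 19.0% in WT. *Ephb2* made up 1.07% and 0.816% in KO against 9.34% and 8.48% in WT. The summed EphB level was 38.2 and 40.5 CPM per kb in KO against 31.9 and 32.8 in WT. *Ephb4* held 50.6% and 51.8% of it in KO against 60.9% and 56.7% in WT and was the leading EphB receptor in every library.

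Among the EphA receptors 3 were lower and 2 higher of the 6 tested. *Epha4*, a receptor that binds ephrins of both classes, was the most abundant Eph receptor per kb of exon in both genotypes. It had 144.8 and 141.6 CPM in KO and 250.1 and 248.1 CPM in WT, with replicates close together in each group. The log2 fold change was -0.80 ± 0.06 (edgeR adjusted p of 3.8e-08). *Epha2*, known for its high level in many tumours, had 37.2 and 40.0 CPM in KO and 75.6 and 61.1 CPM in WT, a log2 fold change of -0.83 ± 0.09 (edgeR adjusted p of 3.4e-06).

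*Epha1*, a receptor known from epithelium, passed the strict limit on few reads. It lies on chromosome 6 of mm9 from 42308486 to 42323267 on the minus strand and had 17 and 10 counts in KO against 46 and 66 in WT. Both KO libraries were below both WT libraries, and the log2 fold change was -2.10 ± 0.36 (edgeR adjusted p of 0.00018, 8.7e-10 to 0.0070 over the alternatives). Without KO replicate 2 it was -1.87, without WT replicate 2 -1.78 and with library totals -1.96, each short of the log2 limit of 2. Its exons overlap those of *Zyx* on the opposite strand, which had 12927 and 12730 counts in KO and 11219 and 8920 in WT. Whether reads of *Zyx* were counted for *Epha1* was not tested.

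*Epha7* and *Epha3* were higher in KO. *Epha7*, which acts in closure of the neural tube, had 23.9 and 24.4 CPM in KO against 10.6 and 14.2 CPM in WT, a log2 fold change of 0.96 ± 0.12 (edgeR adjusted p of 8.0e-06). *Epha3*, a receptor expressed in mesenchyme, had 9.43 and 9.66 CPM in KO against 5.45 and 5.08 CPM in WT, a log2 fold change of 0.86 ± 0.13 (edgeR adjusted p of 4.5e-05). KO libraries were above WT libraries for both genes. *Epha5* barely passed the filter, with 8 and 10 counts in KO and 3 and 13 in WT. This is 0.168 and 0.243 CPM in KO and 0.067 and 0.317 CPM in WT, and *Epha5* was not called (log2 fold change 0.11 ± 0.66). The sign of its fold change turned with a library left out, which gave -0.64 to 1.53. *Epha10* was not tested, with 5 counts in each KO library and 2 and 1 in WT, a ratio of 3.22 with an exact 95% interval of 0.829 to 18.2. *Epha6* had 1 count in each KO library and 3 and 1 in WT, and *Epha8* 0 and 2 in KO and 2 and 1 in WT.

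The summed EphA level was 35.1 and 35.2 CPM per kb in KO against 58.1 and 55.2 in WT. *Epha4* held 65.3% and 63.5% of it in KO and 68.1% and 71.1% in WT, while *Epha7* held 6.889% and 7.001% in KO and 1.84% and 2.61% in WT. The Eph receptors as a whole summed to 73.3 and 75.8 CPM per kb in KO and 90.0 and 87.9 in WT. EphA and EphB sums were close to each other in KO, whereas the EphA sum was the higher in WT. These sums are descriptions without a test.

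**Figure D2:**
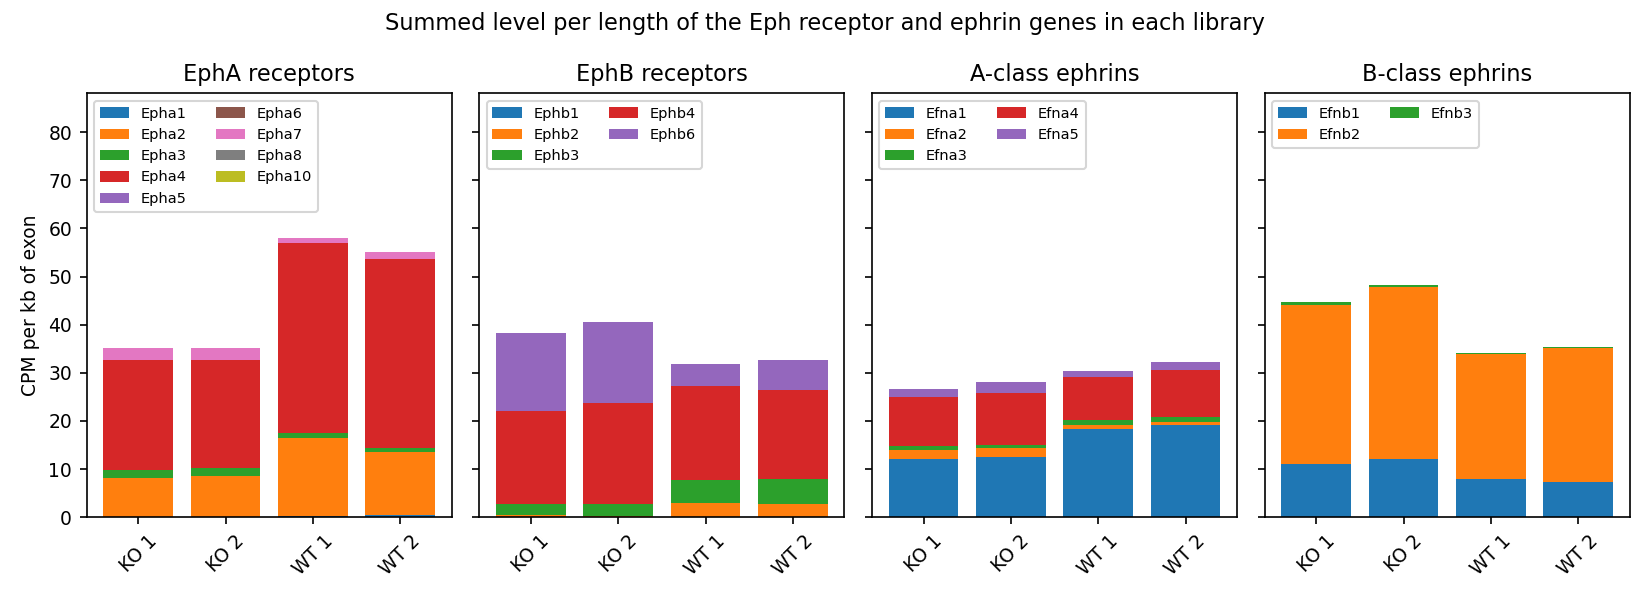
Summed level per length (CPM per kb of exon) of the EphA, EphB, ephrin-A and ephrin-B genes, with 2 KO bars left of 2 WT bars in each panel and each gene a segment. The *Ephb6* segment is 42.2% and 41.6% of the EphB bars in KO and 14.6% and 19.0% in WT.

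Among the ephrins, the ligands of the Eph receptors, 5 were higher and 1 lower of 8 tested, and all 3 B-type ephrins were higher. *Efnb2*, ephrin-B2, an arterial marker that also acts in mesenchyme, was the most abundant ephrin per kb. It had 158.3 and 170.9 CPM in KO and 123.8 and 132.9 CPM in WT. KO libraries lay above WT libraries with a modest gap, at a log2 fold change of 0.36 ± 0.06 (edgeR adjusted p of 0.00022).

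*Efnb1*, the X-linked ephrin-B1 needed for craniofacial and skeletal patterning, had 38.4 and 41.5 CPM in KO against 27.5 and 25.5 CPM in WT. The log2 fold change was 0.59 ± 0.08 (edgeR adjusted p of 1.7e-05). *Efnb3*, the ephrin-B3 of the neural midline, was low at 1.75 and 1.65 CPM in KO against 1.07 and 0.659 CPM in WT. Its log2 fold change was 0.96 ± 0.27 (edgeR adjusted p of 0.0069, 7.7e-05 to 0.068 over the alternatives). The call was lost in DESeq2 (adjusted p of 0.068) and without KO replicate 1 (edgeR adjusted p of 0.065).

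The A-type ephrins were mixed. *Efna1*, ephrin-A1, first known as a gene induced by tumour necrosis factor, had 22.0 and 23.1 CPM in KO against 33.4 and 35.2 CPM in WT. It was the lowered ephrin, at a log2 fold change of -0.61 ± 0.08 (edgeR adjusted p of 1.2e-05). *Efna2*, a topographic cue of the visual system, had 4.25 and 3.81 CPM in KO against 1.83 and 1.39 CPM in WT, at 1.32 ± 0.20 (edgeR adjusted p of 5.3e-05). The groups of both genes stood apart in opposite directions.

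*Efna5*, another topographic cue, had 6.92 and 8.52 CPM in KO against 5.02 and 6.52 CPM in WT, with the lower KO library just above the higher WT library. The log2 fold change was 0.42 ± 0.16 (edgeR adjusted p of 0.033, 0.00018 to 0.31 over the alternatives). It lost its call in DESeq2 (adjusted p of 0.11), without KO replicate 2 (edgeR adjusted p of 0.31) and without WT replicate 1 (edgeR adjusted p of 0.14). Exons of *Efna5* overlap those of another gene annotated under the same name, on the same strand. *Efna4*, a less studied A-type ligand, had 16.3 and 17.4 CPM in KO and 14.5 and 15.7 CPM in WT, a log2 fold change of 0.16 ± 0.10. *Efna3*, another of the class, had 1.98 and 1.48 CPM in KO and 2.39 and 2.32 CPM in WT, at -0.44 ± 0.21. Neither was called, although *Efna4* was with library totals, at 0.31 (edgeR adjusted p of 0.013, up to 0.51 over the alternatives), and *Efna3* without WT replicate 2, at -0.49 (edgeR adjusted p of 0.045, up to 0.46). Exons of both overlap a noncoding transcript on the opposite strand.

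*Efna1*, *Efna3* and *Efna4* lie in a row on the minus strand of chromosome 3, with 32.757 and 10.425 kb between neighbours in mm9. Their log2 fold changes were -0.61, -0.44 and 0.16, with *Efna1* and *Efna3* in the same direction and *Efna1* alone called. Whether these neighbours changed together was not tested. Summed ephrin-A level was 26.7 and 28.0 CPM per kb in KO against 30.4 and 32.2 in WT, and *Efna1* held 44.96% and 45.06% of it in KO against 60.0% and 59.6% in WT. Summed ephrin-B level was 44.7 and 48.2 CPM per kb in KO against 34.1 and 35.3 in WT. All ephrins together came to 71.4 and 76.2 CPM per kb in KO and 64.6 and 67.6 in WT, while the Eph receptor sum was the lower one in KO.

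**Figure D3:**
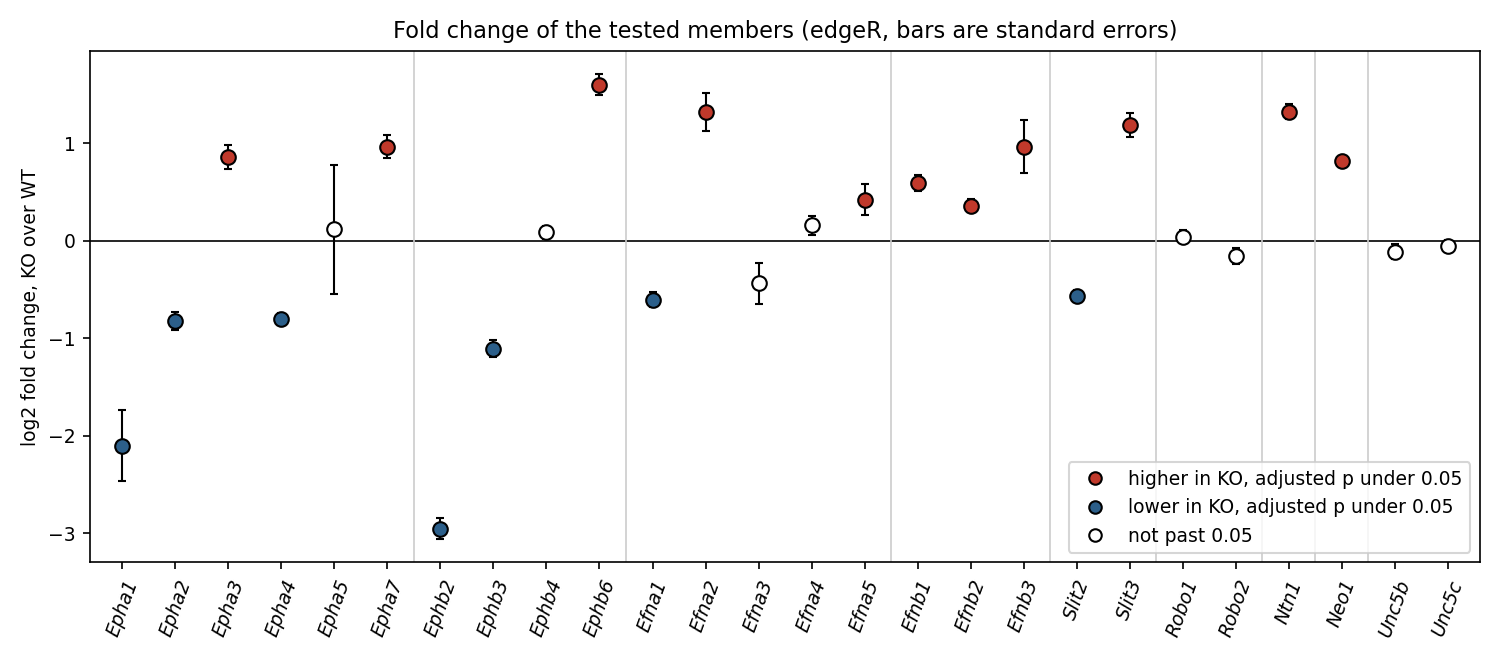
Log2 fold change of each of the 26 tested genes, KO over WT, from edgeR, with standard errors as bars and genes grouped by family. Filled points passed an adjusted p of 0.05 (11 higher, 7 lower), and the points run from -2.95 for *Ephb2* to 1.60 for *Ephb6*.

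The Slit ligands moved in opposite directions. *Slit2*, the more abundant in these cells, had 73.2 and 78.9 CPM in KO and 111.1 and 114.0 CPM in WT, a log2 fold change of -0.57 ± 0.06 (edgeR adjusted p of 3.0e-06). *Slit3*, whose loss is known to cause diaphragmatic hernia in mice, had 13.8 and 16.8 CPM in KO and 6.88 and 6.57 CPM in WT, a log2 fold change of 1.18 ± 0.13 (edgeR adjusted p of 1.9e-06). The libraries of each gene did not overlap. *Slit3* held 31.8% and 34.4% of the summed Slit level per kb in KO against 13.3% and 12.5% in WT, with the sum at 7.13 and 8.07 CPM per kb in KO and 8.49 and 8.64 in WT.

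*Slit1*, the Slit mostly of the nervous system, was below the filter with 5 and 16 counts in KO and 0 and 1 in WT. The ratio per library size was 20.3, with an exact 95% interval of 3.26 to 839 that covers counting error only. It was called with no filter on low counts, in DESeq2, and without KO replicate 1, WT replicate 1 or WT replicate 2 (higher in each). The KO libraries differed between themselves, with most counts in KO replicate 2.

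The Robo receptors of these Slits showed small differences. *Robo1*, the main Slit receptor here by level per kb, had 65.8 and 71.4 CPM in KO and 65.0 and 68.3 CPM in WT, with overlapping groups and a log2 fold change of 0.04 ± 0.07. Without KO replicate 2 it was -0.02, and library totals made it a call at 0.19 (edgeR adjusted p of 0.026, up to 0.98 over the alternatives). *Robo2*, which acts with Slit2 in placing the kidney bud, had 28.7 and 28.0 CPM in KO and 32.9 and 30.3 CPM in WT, at -0.16 ± 0.08 and not called. It was called without WT replicate 2, at -0.25 (edgeR adjusted p of 0.013, up to 0.94 over the alternatives). *Robo1* and *Robo2* are neighbours on chromosome 16, on opposite strands.

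*Robo3*, a receptor of commissural axons, had 8 counts in each KO library and 0 in each WT library. With the WT group set to a floor of 3 counts, the ratio per library size was 5.15, without allowance for counting error in KO. *Robo3* was below the filter, and was called without the filter and in DESeq2. *Robo4*, the endothelial Robo, lies 1.646 kb from it in mm9, on the other strand, and had 3 and 0 counts in KO and 0 in both WT libraries.

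The netrin among the members and a receptor of it showed some of the clearest rises. *Ntn1*, netrin-1, had 68.0 and 69.5 CPM in KO against 29.5 and 25.4 CPM in WT. Both KO libraries were far above both WT libraries, and the log2 fold change was 1.32 ± 0.08 (edgeR adjusted p of 8.2e-09). Exons of *Ntn1* overlap a noncoding transcript on the same strand. *Ntn4*, a netrin that is not among the members, had 37.2 and 37.3 CPM in KO against 41.5 and 40.0 CPM in WT. It was not called, at a log2 fold change of -0.13 ± 0.07.

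*Neo1*, neogenin, a relative of Dcc that binds netrins and repulsive guidance molecules, had the highest level per kb of all 36 genes in KO, a mean of 45.1 CPM per kb against 25.7 in WT. Its libraries had 329.6 and 336.8 CPM in KO and 192.7 and 186.4 CPM in WT, with each pair tight. The log2 fold change was 0.81 ± 0.06 (edgeR adjusted p of 3.7e-08). *Dcc*, the classical attractive netrin receptor, was near 0, with 3 and 1 counts in KO and 5 and 1 in WT.

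Of the repulsive netrin receptors, *Unc5b* and *Unc5c* passed the filter and neither was called, while *Unc5a* and *Unc5d* were below it. *Unc5b*, known from vessels, had 168.8 and 175.1 CPM in KO and 201.8 and 169.8 CPM in WT, and the higher KO library lay between the WT libraries. Its log2 fold change was -0.11 ± 0.08, and it turned to 0.015 without WT replicate 1 and to 0.038 with library totals. Without WT replicate 2 it was called, at -0.27 (edgeR adjusted p of 0.00026, up to 0.87 over the alternatives). *Unc5c*, which guides cerebellar cells, had 99.7 and 102.5 CPM in KO and 104.3 and 106.0 CPM in WT, at -0.06 ± 0.06, with 0.0026 under upper-quartile scaling and 0.09 with library totals. *Unc5a*, a neuronal member, had 0 and 3 counts in KO and 7 and 7 in WT, a ratio of 0.207 with an exact 95% interval of 0.0382 to 0.742, and its exons overlap those of *Hk3*. *Unc5d* had 1 and 1 counts in KO and 0 and 1 in WT.

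By mean level per kb, *Neo1* led in KO, followed by *Efnb2* (34.4), *Unc5b* (29.4), *Epha4* (22.6), *Ephb4* (20.2) and *Ephb6* (16.5 CPM per kb). In WT, *Epha4* led with 39.4 CPM per kb, followed by *Unc5b* (31.7), *Efnb2* (26.8), *Neo1* (25.7), *Ephb4* (19.0) and *Efna1* (18.7). *Epha4* was thus the leading gene in WT and came after *Unc5b* in KO. *Ephb6*, at 5.45 CPM per kb in WT, was not among the leading genes there.

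CpG content of the promoters was compared next, since the choice by symbol did not use it. Windows of 300 bases, from 250 before to 50 after the RefSeq start, were found for 31 of the 36 (not for *Efnb3*, *Ntn1*, *Slit1*, *Dcc* and *Unc5d*). The letters CG were counted and set against the number given by the C and G content. This ratio was above 0.6 in 22 of the 31 members (71.0%), against 59.8% of the 12472 genes of the table with a window. For genes with more than 1 window, 4 of the members among them, the mean over their windows was used. The median ratio of the 31 members was 0.681, just below the 0.690 of all genes with a window. Among members higher in KO the ratio was above 0.6 in 8 of 9, and among those lower in 4 of 7. It was above 0.6 in 5 of 8 of those tested and not called, and in 5 of 7 of those not tested. The 12472 genes were not split by their call, so the values of the member groups have no matched background. The median ratio was 0.826 in the higher members, 0.673 in the lower, 0.669 in those not called and 0.603 in those not tested, against 0.690 over all genes with a window. *Ephb6* had 34 CG and a ratio of 0.781, *Ephb2* 24 and 0.681, and *Epha1* 14 and 0.572, over the whole window. With so few genes per group these are counts without a test, and methylation at these windows was not analysed here.

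Other genes of the pathways were taken from lists of partners. Of 29 tested partners of Eph and ephrin signalling, 5 were higher and 16 lower, with a median log2 fold change of -0.19. The largest falls with at least 1 CPM on average were *Ngef* (ephexin-1, an exchange factor that binds EphA receptors), at -3.90, with 25 and 20 counts in KO and 373 and 282 in WT, and *Chn1* (a Rac GTPase-activating protein downstream of Epha4), at -1.25. *Vav3*, a guanine nucleotide exchange factor, was at -1.14 and the kinase *Src* at -0.92. The higher ones included *Pdzrn3* at 1.81, *Rgs3*, which binds B-type ephrins, at 0.74, and the adaptors *Crkl* at 0.51 and *Nck2* at 0.34. With library totals 8 of these partners were higher in place of 5.

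Of 16 tested partners of Slit and Robo, 6 were higher and 7 lower, with a median log2 fold change of 0.08. *Nell2*, a ligand of Robo3, had 793 and 733 counts in KO and 21 and 33 in WT, a log2 fold change of 4.76. *Dag1*, dystroglycan, which binds Slit, was at 1.25, *Srgap3*, a Slit-Robo GTPase-activating protein, at 0.36, and the proteoglycan *Gpc1* at 0.30. The lower ones were led by *Cap2*, an actin regulator, at -2.76, followed by *Srgap1* at -0.61, *Cap1* at -0.39 and *Flrt3*, a co-receptor of Robo1, at -0.37. The 7 lower became 4 with library totals and also without KO replicate 1.

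Of 22 tested partners of netrin, Dcc, Unc5 and neogenin, 9 were higher and 8 lower, with a median log2 fold change of 0.17. *Ntng1*, a membrane-anchored netrin-G, had 119 and 134 counts in KO and 1 and 2 in WT, a ratio of 81.5 with an exact 95% interval of 27.6 to 398. *Flrt1* was at 2.43, the netrin *Ntn3* at 2.15 and *Lphn3*, a receptor of Flrt proteins, at 1.02. The largest falls with at least 1 CPM on average were *Flrt2*, an Unc5 ligand, at -1.49, *Trio*, an exchange factor downstream of Dcc, at -0.59, *Appl1*, an adaptor of Dcc, at -0.53, and *Siah2*, a ubiquitin ligase of Dcc, at -0.52. All log2 fold changes of partners given here passed an adjusted p of 0.05 in edgeR, and that of *Ntn4*, given beside *Ntn1*, did not. The share called was 72.4%, 81.3% and 77.3% in the Eph, Slit and netrin lists, against 66.8% of all genes. Because the lists were chosen with earlier results of these data known, the shares are descriptions. Whether the partners changed more often than other genes was not tested.

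**Figure D4:**
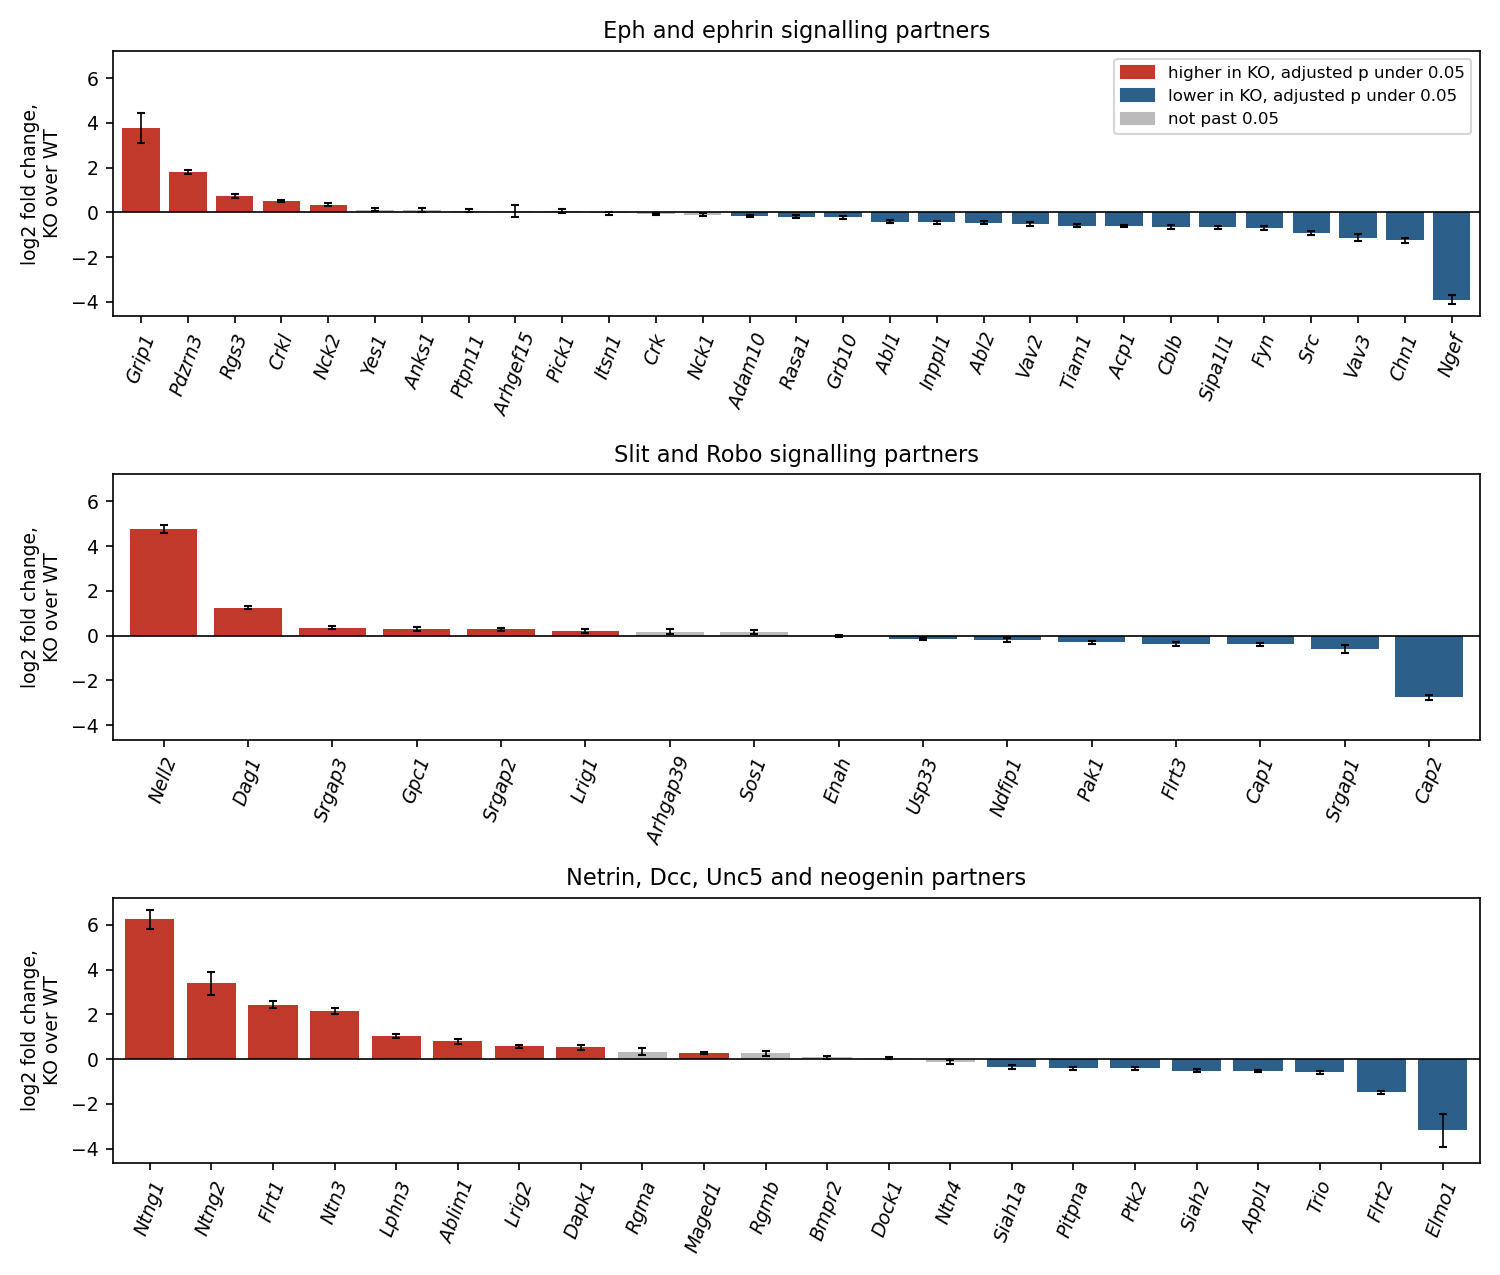
Log2 fold change, KO over WT, of the tested partner genes in the Eph and ephrin, Slit and Robo, and netrin lists, ordered by size, from edgeR, with standard errors as thin lines. Bars in colour passed an adjusted p of 0.05: 5 higher and 16 lower, 6 and 7, and 9 and 8.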

How the data were processed

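RNA-seq of 2 *Mbd4* KO and 2 WT MEF samples was used. The authors aligned reads to mm9 with TopHat2 and Bowtie and counted them per Ensembl gene with HTSeq 0.5.4p3; the deposited raw counts for 23537 genes are the values used. Whether the counting used strand is stated nowhere in the sources used. The deposited normalized counts, whose decimals are written with commas, and the columns of the authors' own comparison (log2 ratios and p-values) were not used.

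The 15538 genes kept by filterByExpr were fitted in R 4.3.3 with edgeR 4.0.16, TMM scaling and genotype as the only term, by the quasi-likelihood test with Benjamini-Hochberg adjustment. DESeq2 1.42.0 and limma 3.58.1 gave alternatives, beside other scalings (RLE, upper quartile, library totals), other filters on low counts, the replicate number as a block and each library left out. Each standard error is the size of the log2 fold change over the root of the F statistic. Levels per kb use the union of exons in the mm9 annotation, which holds 23393 of the identifiers. Ratios of untested genes carry exact 95% intervals, which cover counting error only. The ratio of *Robo3*, which rests on a floor, carries none. The scripts were tested on simulated data. Promoter windows are from RefSeq, GRCm38.p6, matched by symbol.

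The members and lists were chosen with earlier results of these data known. Members with a mean of at least 1 CPM or a call have their values per library, and members below these limits are given by their counts. Of each partner list up to 4 genes per direction with the largest change and a mean of at least 1 CPM are named. *Ntn4* is given in addition, beside *Ntn1*. Partner lists hold genes whose products act with the members. Marker lists not described above were macrophage (2 higher, 1 lower of 4 tested), skeletal muscle (1 and 1 of 3) and smooth muscle and pericyte (4 and 4 of 8). The smooth muscle and pericyte list summed to 4266 to 4273 CPM in KO against 5607 to 6411 CPM in WT. Its log2 fold changes ran from -0.67 to 5.08. *Ntng1* stands on 2 rows, of which that with the longer exons was used.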

Additional observations from a re-analysis of the deposited data

How the results depend on the processing

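Across 12 alternatives, 16 of the 18 called members kept their call and direction; *Efna5* and *Efnb3* did not, as given above. The 11 higher members became 14 with library totals and ran from 10 to 12 with 1 library left out, and the 7 lower ran from 7 to 10. With an absolute log2 fold change above 1 required, 4 were higher and 3 lower. The 2 past the strict limit became 1 with library totals, 4 with no filter on low counts and 1 to 3 with 1 library left out. The median of 0.10 became 0.25 with library totals and ran from 0.00245 to 0.21 with 1 library left out. Partners of Eph higher went to 8 with library totals. Partners of Slit and Robo lower went to 4 with library totals and ran from 4 to 7 with 1 library left out. Signs turned for *Epha5* (-0.64 to 1.53 with 1 library left out), *Robo1* (-0.019 without KO replicate 2), *Unc5b* (0.038 with library totals, -0.27 to 0.015 with 1 library left out) and *Unc5c* (0.0026 with upper quartile, 0.092 with library totals), none of them called with all libraries under TMM. The cause was not tested. The fit with the replicate number as a block gave 11 higher and 7 lower members, the same 18 genes, and a strict count of 2. The sources used here do not say whether libraries with the same number share a culture or preparation. Their deviations had a correlation of -0.029, a single value that cannot settle this. A library left out leaves 1 sample in its group, assumed to vary like the other group. The 10 members below the filter were tested only without it and, in part, in DESeq2 or with 1 library left out.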
